A study of Arabidopsis thaliana with 6 samples.

Results

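The raffinose family genes of Arabidopsis thaliana were followed in imbibed seeds, as 10 loci of the 33602 in the gene count table, chosen by locus identifier: galactinol synthases GOLS1 (AT2G47180), GOLS2 (AT1G56600) and GOLS3 (AT1G09350), raffinose synthase RS5 (AT5G40390), stachyose synthase STS (AT4G01970), the seed imbibition proteins SIP1 (AT1G55740) and SIP2 (AT3G57520), DIN10 (AT5G20250), and the alpha-galactosidases AGAL1 (AT5G08380) and AGAL2 (AT5G08370). The seeds were wild type Columbia-0 (Col-0), imbibed for 2 h in darkness, given 20 min of saturating far-red light, and kept in the dark at 5 °C for 3 days. They then received 20 min of red light (Rp, 0.05 µmol per m2 per s, calculated Pfr/P of 0.87) or of far-red light (FRp, 42 µmol per m2 per s, Pfr/P of 0.03), where Pfr/P is the share of phytochrome in its active form. Both conditions therefore share the first far-red pulse and the cold. By the methods for germination, seeds went back into darkness after the second pulse and were kept warmer than 5 °C. Whole seeds were collected 12 h after the pulse as 3 biological replicates of each condition, and polyadenylated RNA was sequenced. By the methods, seeds of a genotype came from a single bulk harvest. Whole seeds hold embryo, endosperm and seed coat, so fewer cells of a type and less RNA per cell cannot be told apart.

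Raffinose family oligosaccharides are sucrose molecules that carry galactose units, and many seeds, those of Arabidopsis included, store them as they mature and dry. Galactinol synthase joins UDP-galactose to myo-inositol, raffinose synthase moves the galactose of galactinol onto sucrose, and stachyose synthase adds a further galactose to raffinose. Alpha-galactosidases take galactose off again, which leaves sucrose, and the sugars are used up around germination.

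The detected galactinol synthases and STS were lower after the Rp, and 4 of the 5 genes of the SIP, DIN10 and AGAL group were higher. Of the 10, 8 passed the filter on low counts, and all 8 passed the test (over 1.5-fold at an adjusted p under 0.05), 4 of them higher and 4 lower after the Rp. Over all genes, 55.6% of the 16924 tested passed, 28.8% higher and 26.8% lower, so a called gene is common in these seeds. GOLS1, GOLS2 and STS fell, SIP1, SIP2, DIN10 and AGAL2 rose, and AGAL1 fell by less than the others. In all 8, the Rp and FRp libraries did not overlap, as in 78.3% of all tested genes. With changes in both directions, the median log2 fold change of the 8 was 0.17, beside 0.02 over all tested genes. RS5 stayed under the filter and GOLS3 had no reads.

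Before the values, the bases upstream of 5 of the genes are shown, since members that moved in opposite directions hold the same short motif there. They were read from TAIR10.1 as far as 250 bases upstream of the gene start in the TAIR10 models, and stop before the outermost transcript start that RefSeq annotates. They cover chr2:19370479-19370691 (minus strand, 213 bases) for GOLS1, chr1:21207287-21207536 (plus strand, 250 bases) for GOLS2, chr1:20838779-20839028 (minus strand, 250 bases) for SIP1, chr3:21293172-21293408 (minus strand, 237 bases) for SIP2 and chr5:6833409-6833563 (plus strand, 155 bases) for DIN10. Each is written 5′ to 3′ on the strand of its gene, with ACGTG (the core of elements bound by ABA-response and light-response bZIP factors) and TTATCC (the core of the sugar-repressive element) in capitals on either strand.
GOLS1: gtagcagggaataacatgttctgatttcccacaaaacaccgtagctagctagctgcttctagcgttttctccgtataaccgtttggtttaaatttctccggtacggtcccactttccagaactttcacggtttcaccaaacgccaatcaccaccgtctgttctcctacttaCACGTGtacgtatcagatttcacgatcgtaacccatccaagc
GOLS2: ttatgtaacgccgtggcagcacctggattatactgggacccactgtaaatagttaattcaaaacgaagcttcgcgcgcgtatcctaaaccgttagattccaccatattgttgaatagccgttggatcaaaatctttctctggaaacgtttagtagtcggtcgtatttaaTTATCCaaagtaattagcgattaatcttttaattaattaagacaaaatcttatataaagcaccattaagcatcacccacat
SIP1: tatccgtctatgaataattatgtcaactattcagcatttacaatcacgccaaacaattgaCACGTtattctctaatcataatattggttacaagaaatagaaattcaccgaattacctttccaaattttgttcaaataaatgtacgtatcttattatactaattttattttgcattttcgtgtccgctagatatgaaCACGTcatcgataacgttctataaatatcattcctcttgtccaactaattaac
SIP2: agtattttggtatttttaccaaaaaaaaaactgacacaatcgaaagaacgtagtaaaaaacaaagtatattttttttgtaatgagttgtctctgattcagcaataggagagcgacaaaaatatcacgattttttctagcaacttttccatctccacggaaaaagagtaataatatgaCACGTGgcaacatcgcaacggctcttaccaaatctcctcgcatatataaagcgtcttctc
DIN10: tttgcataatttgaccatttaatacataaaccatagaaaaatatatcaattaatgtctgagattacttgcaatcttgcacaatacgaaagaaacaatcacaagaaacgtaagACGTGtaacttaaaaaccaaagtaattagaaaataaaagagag

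In the full windows of 250 bases, ACGTG or its complement CACGT was found upstream of 4 of the 10 genes, GOLS1, SIP1, SIP2 and DIN10, and in 23.1% of the 32833 windows of all genes. GOLS1 fell while SIP1, SIP2 and DIN10 rose. The palindrome CACGTG, the G-box, which contains ACGTG on both strands, stood 79 to 74 bases upstream of GOLS1 and 73 to 68 bases upstream of SIP2, and was found in 6.77% of all windows. TTATCC was found upstream of 5 of the 10 genes, GOLS1, GOLS2, GOLS3, DIN10 and, at 2 places, STS, against 12.3% of all windows. In GOLS1, GOLS3, STS and DIN10 it lies outside the upstream bases that can be printed, within the span of a transcript that RefSeq annotates. In these genes it is upstream of the TAIR10 gene start only. The windows of all genes were searched in full, with no regard to RefSeq transcripts. The gibberellin-response core TAACAAA was found upstream of RS5 and AGAL1 (15.2% of all windows), and the RY core CATGCA, a seed gene element, was not found in the windows of the members (8.22% of all windows). The RS5 match also lies within the span of an annotated transcript. A match describes these letters and was not tested as a binding site.

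Galactinol synthesis is the first step, and both of its detected members fell. GOLS1 (chr2:19368798-19370441, TAIR10) had 779, 617 and 663 reads in the Rp libraries, against 6123, 7917 and 6504 in the FRp libraries. In CPM, which are counts scaled to TMM-normalized library size, these were 22.8, 20.7 and 17.98 after the Rp, against 305.0, 272.0 and 257.1 after the FRp, so that the groups lay far apart. GOLS1 fell by 3.76 on the log2 scale (SE 0.13, 13.6-fold, adjusted p = 5.73e-10, edgeR quasi-likelihood F test, Benjamini-Hochberg). Of the 16924 tested genes, it had the 57th lowest log2 fold change.

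GOLS2 (chr1:21207537-21209596), a galactinol synthase also known from drought and salt responses, had 125, 132 and 121 reads after the Rp, against 909, 1373 and 918 after the FRp. That is 3.66, 4.42 and 3.28 CPM against 45.3, 47.2 and 36.3 CPM. It fell by 3.51 on the log2 scale (SE 0.14, 11.4-fold, adjusted p = 1.45e-09, edgeR). GOLS1 and GOLS2 kept nearly the same proportion in both conditions. On levels per length (CPM per kb of exon), GOLS1 made up 84.8% ± 1.9 of the GOLS1 and GOLS2 sum after the Rp, against 87.0% ± 1.2 after the FRp (SD, n = 3 each), and the libraries of the 2 conditions overlapped.

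GOLS3 (chr1:3019819-3021441), a cold-induced galactinol synthase in seedlings, had 0 reads in all 6 libraries. The seeds were collected 12 h after the pulse, and not at the end of the time at 5 °C, so its level in the cold is not known. A count of 0 allows up to 3 reads per library, which is 0.081 to 0.10 CPM after the Rp, against 0.10 to 0.15 CPM after the FRp. Coding sequences of GOLS2 and GOLS3 are 83.3% identical, but their longest identical stretch is 26 bases.

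The only listed gene named as a raffinose synthase gave few reads. RS5 (chr5:16161515-16165357), the raffinose synthase known from cold and drought in leaves, had 45, 48 and 61 reads after the Rp, against 26, 26 and 13 after the FRp. Its mean read density, 0.018 reads per base after the Rp, against 0.0077 after the FRp, was under the minimum of 0.05, so it was not part of the main test. Levels were 1.32, 1.61 and 1.65 CPM after the Rp, against 1.29, 0.89 and 0.51 CPM after the FRp, and the lowest Rp library stood just above the highest FRp library. With no filter on low counts, its log2 fold change was 0.77 (SE 0.38, adjusted p = 0.087, edgeR), which did not pass the test. No splice junction of RS5 was listed.

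STS (chr4:853922-857008) changed more than any other member. This enzyme makes stachyose in Arabidopsis seeds. It had 64, 44 and 25 reads after the Rp, against 1592, 2196 and 1843 after the FRp. The levels were 1.88, 1.47 and 0.68 CPM after the Rp, against 79.3, 75.4 and 72.9 CPM after the FRp, so the FRp libraries were close together, and the Rp libraries were low and more spread in proportion. STS fell by 5.83 on the log2 scale (SE 0.22, 57.0-fold, adjusted p = 8.11e-10, edgeR), the 4th lowest value among the 16924 tested genes.

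**Figure D1:**
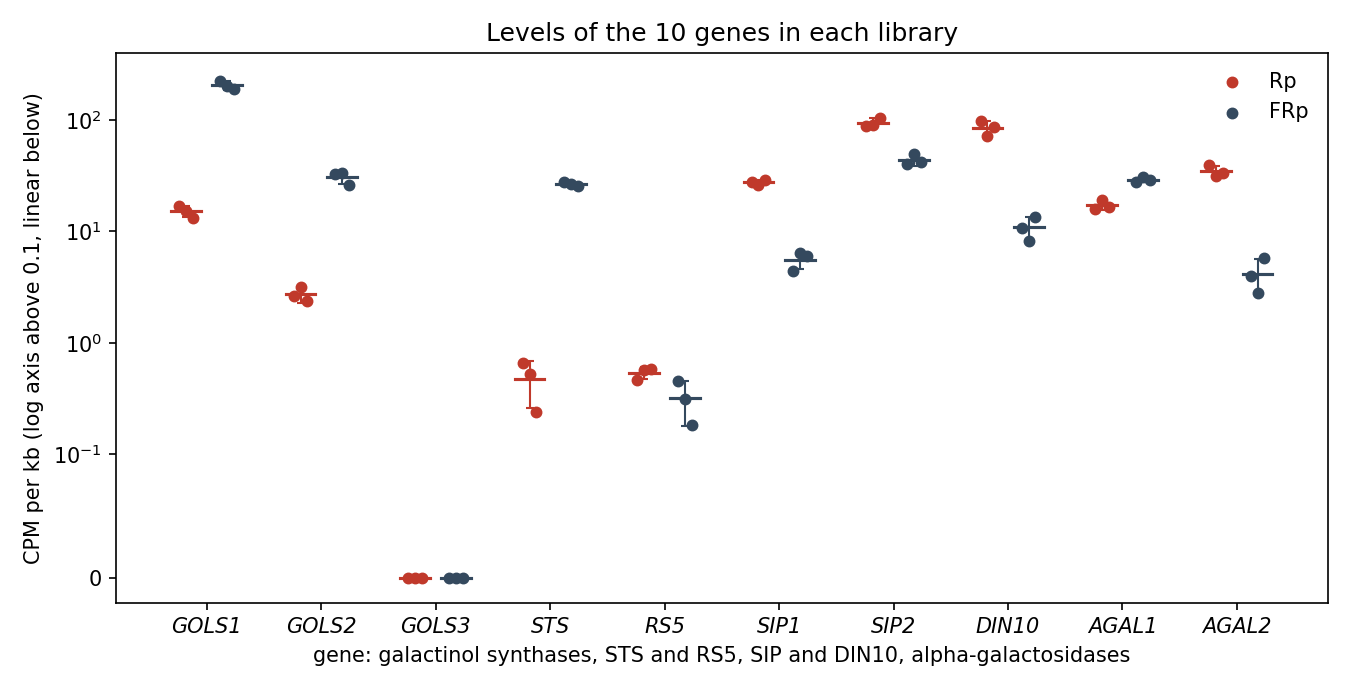
Level of each gene in CPM per kb of exon (vertical axis, logarithmic above 0.1 and linear below), in Rp (red, left) and FRp (dark, right) libraries; points are libraries, and lines with bars are the mean ± SD of 3. GOLS1, GOLS2 and STS lie lower after the Rp, SIP1, SIP2, DIN10 and AGAL2 lie higher, and GOLS3 is at 0.

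Another 3 genes belong to the same protein family as RS5 and STS, glycoside hydrolase family 36 (GH36). Enzyme activity was not measured, so SIP1 and DIN10 are not assigned here to synthesis or to breakdown. SIP1 (chr1:20835366-20838778) is named after seed imbibition proteins of cereals. It had 2367, 1940 and 2661 reads after the Rp, against 220, 457 and 374 after the FRp. That is 69.3, 65.0 and 72.2 CPM against 10.96, 15.7 and 14.8 CPM. SIP1 rose by 2.31 on the log2 scale (SE 0.13, 4.96-fold, adjusted p = 9.56e-09, edgeR).

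SIP2 (chr3:21288765-21293158) encodes an alkaline alpha-galactosidase that acts on raffinose. It had 8312, 7388 and 10675 reads after the Rp, against 2212, 3964 and 2961 after the FRp. Levels were 243.5, 247.6 and 289.5 CPM after the Rp, against 110.2, 136.2 and 117.1 CPM after the FRp. It rose by 1.10 (log2, SE 0.12, 2.15-fold, adjusted p = 2.40e-06, edgeR), the smallest rise among the 4 members that rose.

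DIN10 (chr5:6833659-6836782) takes its name from its induction in dark-treated, sugar-starved leaves. It had 9761, 6364 and 9487 reads after the Rp, against 636, 709 and 1009 after the FRp. The levels were 285.9, 213.3 and 257.3 CPM after the Rp, against 31.7, 24.4 and 39.9 CPM after the FRp. The log2 fold change was 2.98 (SE 0.17, 7.89-fold, adjusted p = 1.46e-08, edgeR).

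Together these values changed the makeup of the GH36 family. Per length, STS was 0.23% ± 0.11 of the summed level of SIP1, SIP2, DIN10, STS and RS5 after the Rp, against 30.7% ± 2.4 after the FRp, whereas DIN10 was 40.9% ± 3.8 after the Rp, against 12.5% ± 3.2 after the FRp (SD, n = 3). SIP2 held 45.2% ± 3.5 after the Rp, against 50.1% ± 3.6 after the FRp, and the highest Rp library stood just below the lowest FRp library in this share. Coding sequences within the family are 59.1 to 66.1% identical, with no shared stretch over 21 bases.

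The acid alpha-galactosidases of glycoside hydrolase family 27 (GH27) moved in opposite directions. AGAL2 had 2069, 1452 and 1905 reads after the Rp, against 123, 125 and 223 after the FRp, or 60.6, 48.7 and 51.7 CPM against 6.13, 4.29 and 8.82 CPM. It rose by 3.07 on the log2 scale (SE 0.20, 8.40-fold, adjusted p = 3.28e-08, edgeR), the largest rise among the members. AGAL1 had 823, 869 and 925 reads after the Rp, against 848, 1357 and 1104 after the FRp, or 24.1, 29.1 and 25.1 CPM against 42.2, 46.6 and 43.6 CPM. AGAL1 fell by 0.76 on the log2 scale (SE 0.10, 1.69-fold, adjusted p = 1.80e-05, edgeR). This call depended on the scaling: with library totals in place of TMM, the log2 fold change of AGAL1 was -0.33, under the 1.5-fold limit (adjusted p = 0.014). Both genes lie on the minus strand of chromosome 5, AGAL2 at 2690879 to 2693550 and AGAL1 at 2694677 to 2697724 (TAIR10), with 1126 bases between them. AGAL3, the third alpha-galactosidase of the family (AT3G56310), fell as AGAL1 did, and AGAL2 made up 42.6% ± 4.7 of the 3 genes' summed level per length after the Rp, against 4.73% ± 1.8 after the FRp (SD, n = 3).

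The order of the levels per length turned over between conditions. After the Rp, SIP2 (94.2 ± 9.2 CPM per kb) and DIN10 (85.6 ± 12.4) were highest and overlapped. AGAL2 (34.9 ± 4.0) and SIP1 (27.8 ± 1.5) followed without overlap, then AGAL1 (17.2 ± 1.8) and GOLS1 (15.1 ± 1.8), which overlapped, GOLS2 (2.71 ± 0.42), and RS5 (0.54 ± 0.06) and STS (0.47 ± 0.21), which overlapped (SD, n = 3). After the FRp, GOLS1 stood far above the rest at 205.2 ± 18.1 CPM per kb. SIP2 followed at 43.9 ± 4.9. GOLS2 (30.7 ± 4.2), AGAL1 (29.2 ± 1.5) and STS (26.7 ± 1.1) came next, where GOLS2 overlapped with both and AGAL1 with STS only at their edges. DIN10 (10.9 ± 2.6) was above SIP1 (5.58 ± 1.0) and AGAL2 (4.17 ± 1.5), which overlapped, and RS5 was at 0.32 ± 0.14 (SD, n = 3). Dividing by length takes reads as spread evenly, but they were concentrated towards the 3′ ends of transcripts (below). Ranks of genes of unlike length, such as GOLS1 (1355 bases of exon) and SIP2 (2761 bases), are limited by this. In CPM after the FRp, STS (75.9) stood above AGAL1 (44.2) and GOLS2 (42.9).

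Summed over the 3 galactinol synthases, the level was 24.3 ± 2.7 CPM after the Rp, against 320.9 ± 28.5 CPM after the FRp. Summed over SIP1, SIP2 and DIN10, it was 581.2 ± 48.9 CPM after the Rp, against 166.9 ± 12.4 CPM after the FRp. The sum over all 10 genes was 688.1 ± 48.7 CPM after the Rp, against 615.2 ± 21.5 CPM after the FRp, and its libraries overlapped (SD, n = 3 each). Per length, the same sum was 278.7 ± 17.2 CPM per kb after the Rp, against 356.6 ± 17.5 CPM per kb after the FRp, with no overlap, so its direction depends on the scale. These sums are given as a description, with no test.

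**Figure D2:**
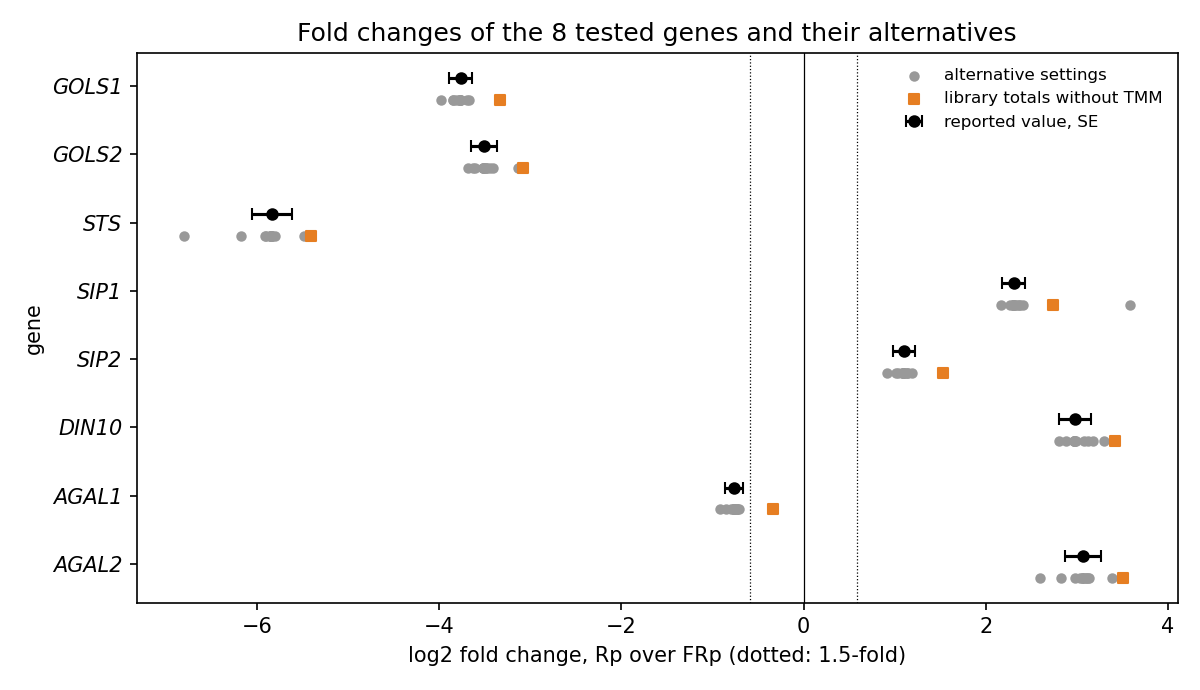
Log2 fold change, Rp over FRp (horizontal axis), of the 8 tested genes; black points are the reported values with SE, grey points the alternative settings, orange squares library totals without TMM, and dotted lines the 1.5-fold limit. Every gene keeps its direction, and the value of AGAL1 without TMM, -0.33, lies inside the limit.

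The 6 libraries held 24234421 to 32387080 gene reads, and correlations between libraries (log2 CPM + 1) were 0.985 to 0.993 within a condition and 0.823 to 0.864 between conditions. Seed storage transcripts moved with the pulse: all 9 seed reserve markers fell, and their summed level was 9993 to 16738 CPM after the Rp, against 135272 to 160162 CPM after the FRp. Of 4 endosperm markers, MAN2 and MAN7 rose, EPR1 fell and MAN5 did not pass, with a summed level, mostly of EPR1, of 1348 to 2498 CPM after the Rp, against 6685 to 9140 CPM after the FRp. Of 5 green seedling markers, RBCS1A and LHCB1.3 rose, RCA fell, PSBO1 did not pass, LHCB2.1 was near 0, and the summed level was 553.8 to 804.5 CPM after the Rp, against 293.5 to 401.6 CPM after the FRp. Their part in the changes of the sugar genes was not tested. TMM factors were 1.149 to 1.183 for the Rp libraries and 0.831 to 0.901 for the FRp libraries, and without TMM the median over all tested genes shifted to 0.45 (log2), with 7524 genes called higher and 2568 lower, where TMM gave 4877 and 4536.

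Reads were concentrated towards the 3′ ends of transcripts, and less so in Rp replicate 3. Over 3888 genes with at least 6 listed splice junctions and a mean of at least 50 reads on the last, the median ratio of reads on the 5′-most to the 3′-most junction was 0.413 in Rp replicate 3, 0.129 and 0.112 in the other Rp libraries, and 0.158 to 0.167 in the FRp libraries. SIP2 shows how the groups differ along a gene. Its 3′-most junction had 622, 668 and 732 reads after the Rp, against 162, 333 and 245 after the FRp, with no overlap in CPM. Its 5′-most junction had 27, 35 and 204 reads after the Rp, against 17, 37 and 29 after the FRp, and there the groups overlapped. SIP2 had 13 listed junctions, of which 9 were higher after the Rp in every library and 4 overlapped. AGAL1 had 14, of which 12 were lower after the Rp in every library and 2 overlapped. At the 3 listed junctions each of GOLS1, GOLS2 and STS, the 11 of SIP1, the 4 of DIN10 and the 13 of AGAL2, the groups did not overlap, always in the direction of the gene. Junctions of a gene come from the same 6 libraries and are not independent of each other. The share without overlap over all listed junctions was not computed, and over all tested genes it was 78.3%.

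Fitted on reads of the 3′-most junction of each gene alone, all 8 genes passed in the same direction, from -6.80 for STS to 3.30 for DIN10 (log2). Of all genes tested in that fit, 49.4% passed. Fitted on the 5′-most junction, 6 passed, beside 33.8% of all genes tested in that fit. SIP2 (0.92, SE 0.43, adjusted p = 0.11, edgeR) and AGAL1 (-0.92, SE 0.36, adjusted p = 0.056, edgeR) did not pass. For AGAL1 this fit rested on 13, 15 and 41 reads after the Rp, against 19, 37 and 31 after the FRp. Without Rp replicate 3, all 8 genes passed on gene counts, with SIP2 at 1.02, AGAL1 at -0.73 and STS at -5.49, beside 55.7% of all tested genes.

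**Figure D3:**
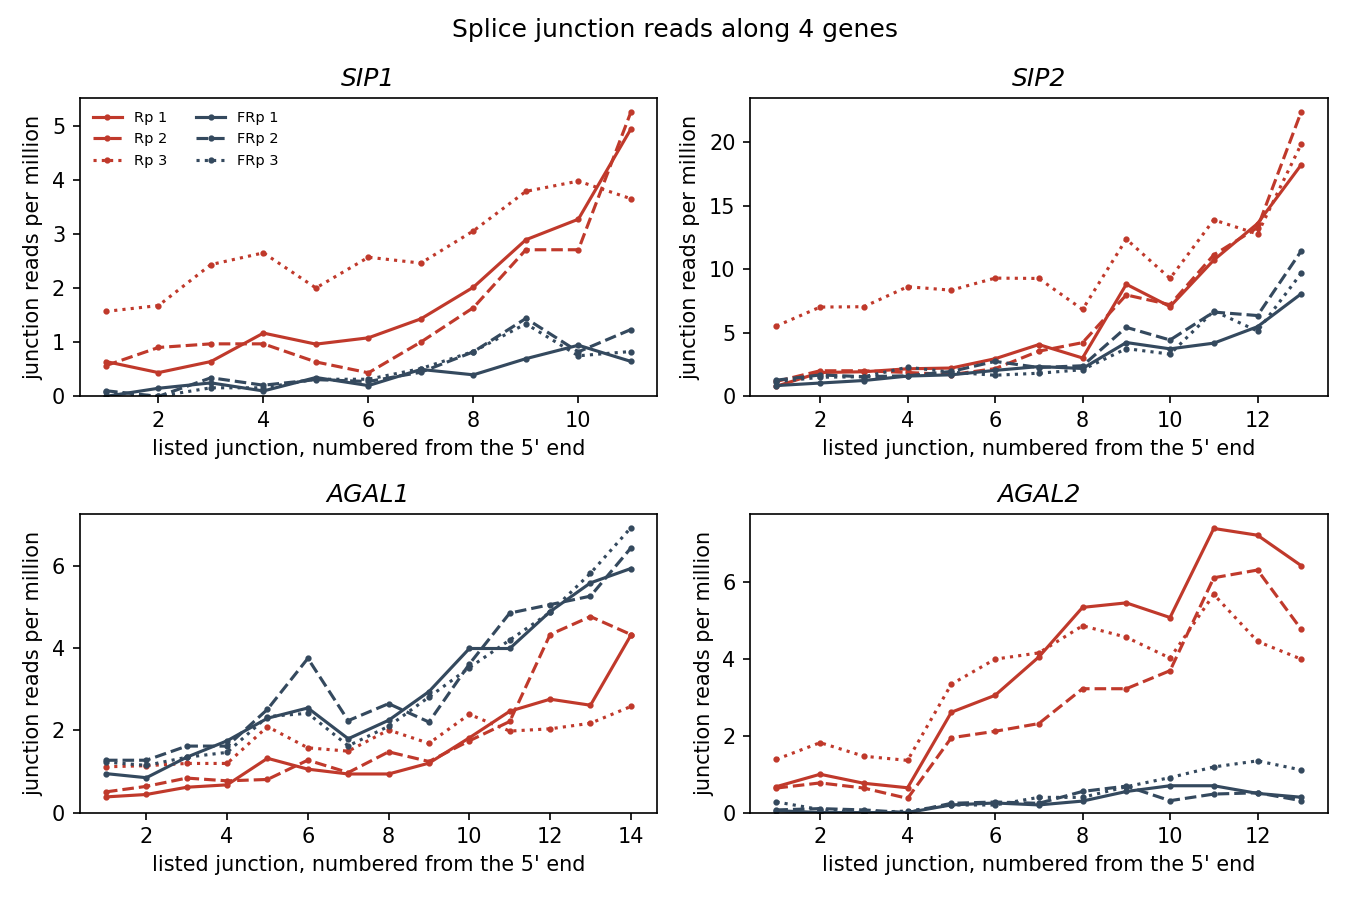
Reads on each listed splice junction, in CPM (vertical axis), from the 5′ to the 3′ end (horizontal axis) of SIP1, SIP2, AGAL1 and AGAL2, for Rp (red) and FRp (dark) libraries, 1 line per replicate. Rp replicate 3 (red, dotted) lies above the other Rp libraries at the 5′ end, and all 3 Rp libraries of AGAL2 lie above the FRp libraries throughout.

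No change in intron retention was called in the introns of the members that could be tested. Of 28466 splicing events tested over all genes (edgeR on junction reads, adjusted p under 0.15, over 0.5 percentage points apart), 2.44% were called. Of the 25 intron events tested in 7 members (SIP2 9, AGAL2 5, GOLS1 and SIP1 3 each, AGAL1 and DIN10 2 each, GOLS2 1), 0 were called. A further 19 of the 64 member events with reads had enough reads in both conditions but fewer than 5 on the retained or the spliced side in all, and were not tested. At an unadjusted p under 0.05 there were 4, where 12.7% of all events are. The smallest adjusted p was 0.23, for the 3′-most listed intron of AGAL1, retained in 0.77% ± 0.24 of transcripts after the Rp, against 0% after the FRp (SD, n = 3 each, 6 inclusion reads in all). STS had too few junction reads after the Rp to be tested. After the FRp, reads were too few at a DIN10 intron (exon ends 6834047 and 6834147), retained in 18.8, 26.5 and 9.14% after the Rp. The same held for an AGAL2 intron (exon ends 2692811 and 2692889), retained in 33.3, 12.0 and 20.6% after the Rp. Whether these differ between conditions is not known. In 18 of the 25 events retention was under 5% in every library, and the differences ran from -2.10 to 7.61 percentage points. The highest value belonged to an intron of SIP1 (between exon ends 20836555 and 20836622 of chromosome 1, TAIR10), retained in 16.1% ± 5.3 after the Rp, against 8.48% ± 8.0 after the FRp (SD, n = 3, adjusted p = 0.79, edgeR).

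Among the other galactinol synthases and GH27 genes that were listed, the 3 that could be tested were lower after the Rp. GOLS10 was the only galactinol synthase among these 3. GOLS10 (AT5G30500) had 1.11, 1.07 and 0.92 CPM after the Rp, against 6.87, 7.73 and 6.80 CPM after the FRp, and fell by 2.78 on the log2 scale (SE 0.21, adjusted p = 1.4e-07, edgeR). AGAL3 fell by 0.90 (SE 0.09), and APSE (AT3G26380), a beta-L-arabinopyranosidase, fell by 1.02 (SE 0.10). GOLS4 had 2 reads in 1 Rp library, and GOLS6 and GOLS7 had none. GOLS5 stayed under the filter, with 29, 29 and 24 reads after the Rp, against 23, 47 and 50 after the FRp. Scaled, these were 0.85, 0.97 and 0.65 CPM against 1.15, 1.61 and 1.98 CPM, which do not overlap. With no filter on low counts its log2 fold change was -0.96 (SE 0.38, adjusted p = 0.031, edgeR), and it was called lower. In this list, 3 of 7 genes passed the filter, all 3 fell, and the median log2 fold change was -1.02. Without TMM 2 of the 3 were called: AGAL3 was at -0.47 and no longer passed, and APSE was at -0.59, at the 1.5-fold limit.

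The substrates of the pathway come from myo-inositol, UDP-galactose and sucrose metabolism, whose genes moved in both directions. Over the 46 other pathway genes, 29 were tested, 7 rose, 10 fell and 12 did not pass, with a median log2 fold change of -0.21, which is 17 of 29 beside the 55.6% of all tested genes. Without TMM, 13 rose and 8 fell. For myo-inositol synthesis and oxidation, 6 of 9 genes were tested, 2 rose and 3 fell (without TMM, IMPL1 also rose and MIOX1 was not called). MIPS2, a myo-inositol phosphate synthase, had 11.7, 11.2 and 8.49 CPM after the Rp, against 47.5, 49.5 and 38.5 CPM after the FRp, and fell by 2.11 on the log2 scale (SE 0.14). VTC4, a myo-inositol and L-galactose phosphatase, rose by 2.08 (SE 0.19).

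For UDP-galactose supply and galactose salvage, all 9 genes were tested, 2 rose, 1 fell and 6 did not pass. This depended on the scaling, since 7 of the 9 were called without TMM. The UDP-glucose pyrophosphorylases moved apart. UGP2 had 16.5, 17.0 and 18.2 CPM after the Rp, against 79.8, 83.2 and 68.7 CPM after the FRp, and fell by 2.16 on the log2 scale (SE 0.10). UGP1 had 62.6, 61.1 and 81.4 CPM after the Rp, against 26.4, 27.6 and 31.1 CPM after the FRp, and rose by 1.27 (SE 0.12). The galactokinase GALK, which salvages the galactose set free, had a log2 fold change of 0.27 (SE 0.12, adjusted p = 0.056, edgeR) and did not pass, but it was called higher without TMM, at 0.70 (SE 0.13, adjusted p = 0.00019, edgeR).

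For sucrose synthesis, 6 of 8 genes were tested, 1 rose and 2 fell. The sucrose phosphate synthase SPS4F fell by 1.95 on the log2 scale (SE 0.14), and AT3G54270, annotated as a sucrose phosphate phosphatase family protein, rose by 1.29 (SE 0.25). For sucrose cleavage, 5 of 13 genes were tested, 2 rose and 1 fell. SUS3, a sucrose synthase of maturing seeds, had 47.8, 47.9 and 46.8 CPM after the Rp, against 271, 286 and 245 CPM after the FRp, and fell by 2.49 (log2, SE 0.10, adjusted p = 1.4e-09, edgeR). CINV1, a cytosolic invertase, had 45.7, 37.5 and 46.4 CPM after the Rp, against 14.8, 15.5 and 14.7 CPM after the FRp, and rose by 1.53 (log2, SE 0.11).

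**Figure D4:**
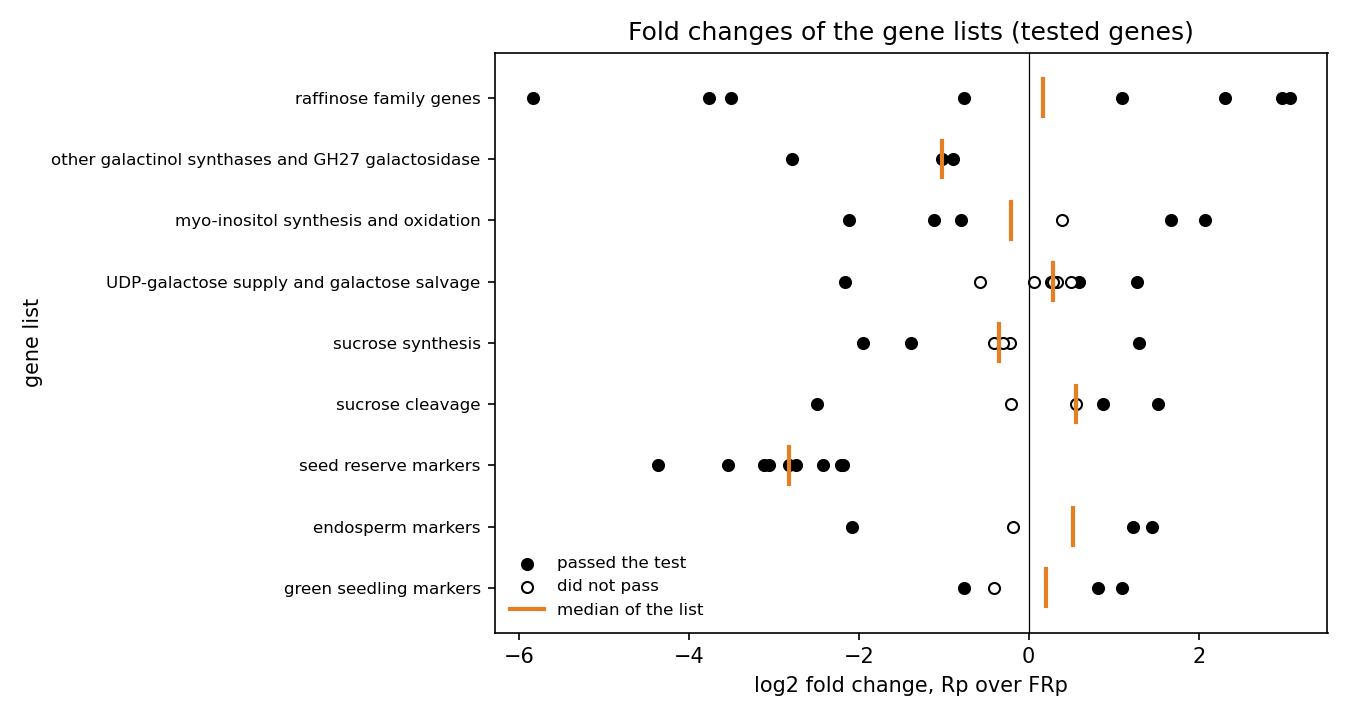
Log2 fold change, Rp over FRp (horizontal axis), of each tested gene in the raffinose family, the other pathway lists and the marker lists (vertical axis); filled points passed the test, open points did not, and orange bars are list medians. The 8 raffinose family genes lie on both sides of 0, between -5.83 and 3.07, and all 9 seed reserve markers lie below 0.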

How the data were processed

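RNA was sequenced from 3 Rp and 3 FRp seed samples, grouped by their labels. Per the methods, the authors mapped read pairs to TAIR10 with TopHat2 2.1.1 (SAMtools 1.3 is also listed in the submitters' processing notes). They deposited raw counts per gene, with an exon length in bases, and raw counts on splice junctions and exon-intron boundaries. The use of strand is not given in the sources used here. No member overlaps another gene in the TAIR10 models. The authors' pooled inclusion fractions were not used.

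Genes above 10 reads on average and 0.05 reads per base in at least 1 condition were tested with edgeR 4.0.16 in R 4.3.3 (TMM, quasi-likelihood, Benjamini-Hochberg adjustment over all tested genes). SE is the absolute log2 fold change divided by the root of F. Splicing was tested on inclusion and exclusion reads with 1 term per library, for events in genes that passed the gene filter in both conditions, with at least 10 reads on average in each condition and at least 5 reads in all on each of the inclusion and exclusion sides. Retention is inclusion reads over inclusion plus 2 times exclusion reads. Members, lists and tests were chosen with earlier results of these data known. Besides the members, the text names the other listed galactinol synthase and GH27 genes and the markers. Of each pathway list, it names the most changed called gene per direction with a mean count of at least 50. GALK, IMPL1 and MIOX1 were added after their values were seen. Alternatives were DESeq2 1.42.0, no TMM, other filters and thresholds, a replicate block, each library left out and, chosen after seeing the data, reads on the 3′-most or 5′-most junction.

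Libraries held 24234421 to 32387080 reads. Replicates of a condition differed by more than sampling noise. Sequences are from the TAIR10.1 reference, where 32834 of 32835 shared loci overlap on the same chromosome. Plots were made in Python 3.11.15 (matplotlib 3.10.9).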

Additional observations from a re-analysis of the deposited data

How the results depend on the processing

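Of 104 values of the 8 tested members under 13 alternatives each, 101 kept their direction and their side of the threshold, 3 no longer passed and 0 reversed. Those 3 were AGAL1 without TMM (-0.33, adjusted p = 0.014) and AGAL1 and SIP2 on the 5′-most junction (-0.92 and 0.92). No library left out changed a call of a member, and the count of 8 called members held under every alternative except no TMM and a fold change over 2 (7 each) and the 5′-most junction (6). The same-numbered libraries of both conditions did not deviate together (correlations of 0.080, -0.11 and -0.069). With 3 libraries of each condition, this cannot show whether same-numbered samples were handled as pairs. The replicate block gave 9357 called genes and 8 called members.

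Over all genes, 9413 were called. The counts were 6202 of 12542 tested on the 3′-most junction (3182 higher, 3020 lower), 3999 of 11826 on the 5′-most junction (2163 higher, 1836 lower) and 5757 for a fold change over 2 (3088 higher, 2669 lower), and 7524 higher and 2568 lower without TMM. Of the other pathway genes, 13 were higher without TMM and 12 with no filter, against 7, and 6 were lower on the 5′-most junction, against 10. Splicing events called were 694, and 212 with the replicate block, 270 at an adjusted p under 0.05, 284 at a difference over 10 percentage points and 360 to 508 with a library left out, and 0 events of the members were called under each of these. Among sucrose cleavage genes, 7 of 12 were called with no filter, against 3 of 5. The cause of these shifts was not tested. Depth limits RS5, GOLS3 and retention in AGAL2, SIP1 and DIN10 after the FRp.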
